A study of Oryza sativa with 5 samples.

Results

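The 2 indica rice parents of the hybrid SY63, MH63 (Minghui 63, the male parent) and ZS97 (Zhenshan 97, the female parent), were compared by tag sequencing of seedling mRNA. All genes with a tag in either library were taken, which gave 20560 genes of the 22546 that had a tag in any of the 5 libraries of the series. There was 1 library per parent, from whole seedlings 15 days old. The seedlings had been raised on 1/2 MS medium with 15 h of light at 30 °C and 9 h of darkness at 25 °C. Neither parent is described as transgenic. The other libraries came from the hybrid SY63 and from SY63 hybrids made with an OsHDT1 over-expression (FU) or OsHDT1 RNAi (FR) construct. They are used here only to show the level of a parental gene in the cross. Without replicates there is no SD, and no p-value is given: every difference below is a difference between 2 libraries, not shown to hold for the genotypes.

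MH63 and ZS97 belong to the same subspecies but are distant enough for their hybrid to be vigorous. Differences in mRNA between such inbred lines come in several forms. Some genes are present or counted in 1 line only, some members of a gene family take over from one another, and some whole pathways run at another level. Families known to vary in this way between rice lines are immune receptors, receptor kinases and enzymes of specialised metabolism, while the genes of photosynthesis make up much of the mRNA of green tissue.

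A tag is the 21 bases that begin at a CATG site near the 3′ end of a transcript, so that 1 tag stands for 1 transcript whatever its length. Sequences are shown for tags that occurred in all 5 libraries and had 1 position in the rice genome, because they are the units that were counted. Of 6812 such tags 304 (4.46%) were called higher in MH63 and 223 (3.27%) were called higher in ZS97, by the rule given for genes below. The tags with the largest ratios and at least 20 copies in each parent follow, with the CATG site in capitals. The genome build behind the positions is not given in the sources used here.
Chromosome 11, start 10048120, minus strand: CATGtaactcttctggttgat
Chromosome 12, start 22559786, plus strand: CATGagtgaataaaatacaca
Chromosome 7, start 17796684, minus strand: CATGatttggagaaattgtag
Chromosome 4, start 20769154, plus strand: CATGtgcaaacatagcagagt
Chromosome 10, start 13077891, minus strand: CATGtgctatttcctttatgg
Chromosome 3, start 9973997, minus strand: CATGcttgacaaaaaaaaaaa
The first 3 were the tags of MH63. The tag on chromosome 11 had 481 copies in MH63 and 21 in ZS97, the tag on chromosome 12 had 448 and 24, and the tag on chromosome 7 had 224 and 20. The hybrids lay far below MH63 for the tag on chromosome 12, with 32 to 65 copies. The other 3 were the tags of ZS97. The tag on chromosome 4 had 24 copies in MH63 and 218 in ZS97, the tag on chromosome 10 had 27 and 159, and the tag on chromosome 3 had 28 and 333. The last of these ends in a run of 11 A. The tags on chromosomes 12, 7 and 3 matched the genome with 1 mismatch. For the 5042 tags that matched without mismatch the called shares were 5.04% towards MH63 and 3.05% towards ZS97. Among the 1770 tags with 1 mismatch these shares were 2.82% and 3.9%.

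The libraries were of nearly equal depth, with 5022081 clean tags in MH63 and 4957343 in ZS97. The study reports fewer distinct clean tags for MH63 than for any other library of the series. What this did to the counts below was not tested. Tags on genes were 73.9% of the MH63 library and 69.5% of the ZS97 library. Tags were counted for 19041 genes in MH63 and 19080 in ZS97, and 17561 genes had tags in both. A count of 0 allows up to 3 tags, or 0.597 TPM (tags scaled to the clean-tag total of the library) in MH63 and 0.605 TPM in ZS97, and no gene had a count of 1. Where a gene was counted in 1 parent only, its ratio was taken against 3 tags and is a lower bound. A tag with more than 1 base changed from the japonica reference was not counted, so a low count need not mean little transcript. The gene OsHDT1 itself, whose dose the FU and FR constructs change, had 2633 tags in MH63 and 304 in ZS97; whether this bears on other genes was not tested. Intervals of 95% for ratios are exact and cover counting error only.

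A gene was called when the tag counts differed at a false discovery rate of at most 0.001 (Audic and Claverie, against counting error) and the TPM values differed at least 2-fold. By this rule 3603 genes (17.5% of 20560) were called. MH63 was the higher parent for 2192 genes (10.7% of all) and ZS97 for 1411 genes (6.86% of all). Of the called genes 60.8% were higher in MH63. This split depends on the scaling: with TMM totals 1589 genes were higher in MH63 and 1852 higher in ZS97, or 46.2%, because all log2 ratios moved by -0.18. Among 15548 genes with at least 20 tags in the 2 libraries together, 13.5% were called towards MH63 and 8.6% towards ZS97, and the median log2 ratio of MH63 to ZS97 was 0.20 (quartiles -0.42 and 0.79). Differences of at least 4-fold were found for 740 genes higher in MH63 and 600 higher in ZS97, and differences of at least 16-fold for 133 and 126 genes. The called genes held 26.1% of the gene tags of MH63 and 22.6% of those of ZS97. If seedlings are assumed to vary with a coefficient of variation of 0.2, the exact test of edgeR called 524 genes higher in MH63 and 424 higher in ZS97. In the gene lists below, counts and shares of all members with a tag are read against 10.7% and 6.86%. Shares of members with at least 20 tags are read against 13.5% and 8.6%. The TMM counts are given beside a list where they turn its direction.

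**Figure D1:**
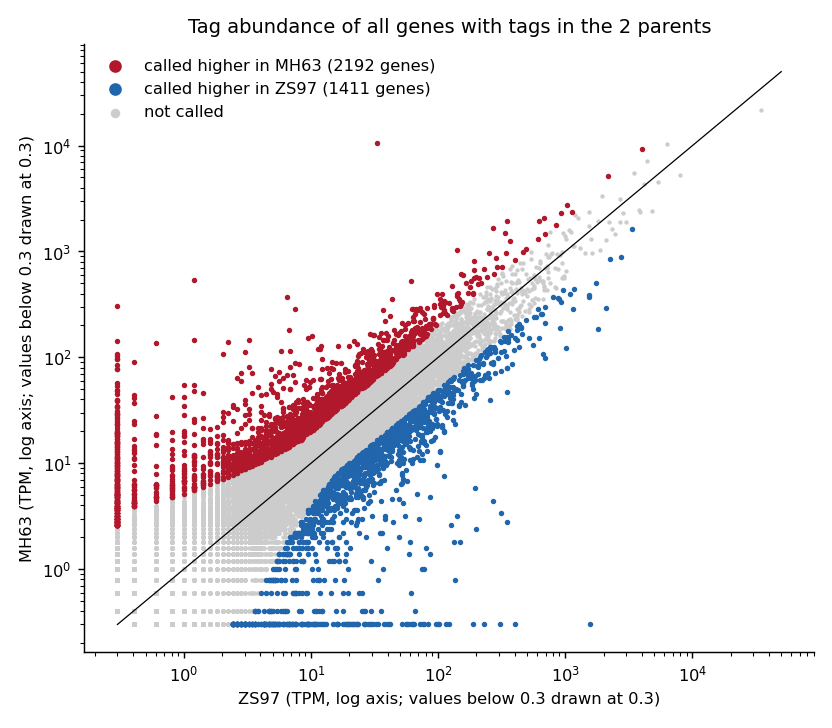
Tag abundance in MH63 (vertical axis) and ZS97 (horizontal axis) of all 20560 genes, in TPM on log axes, with 1 point per gene. Red points are the 2192 genes called higher in MH63, blue points the 1411 called higher in ZS97, and the points on the edges are genes counted in 1 parent only.

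The antenna of photosynthesis stood apart most clearly. Chlorophyll a/b binding proteins carry the pigments that collect light for the photosystems. None of their 17 genes was called higher in MH63 and 13 were called higher in ZS97, or 76.5% against the 8.6% of all genes. All 17 had the lower TPM in MH63. Together they had 25128 tags in MH63 and 73347 in ZS97, a 2.96-fold difference, and the median log2 ratio was -1.80. The count was the same with TMM totals, and 9 of the 13 stayed called with an assumed variation of 0.2.

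The difference was found in abundant and in rare antenna genes, but not in the most abundant one. LOC_Os11g13890 had 1459 tags in MH63 and 10333 in ZS97 (log2 ratio -2.84, interval -2.92 to -2.76). LOC_Os08g33820 had 4249 and 11113 tags, LOC_Os07g37240 had 2520 and 8638, and LOC_Os06g21590 had 1885 and 7651. LOC_Os01g41710 had 1430 tags in MH63 and 5683 in ZS97, and LOC_Os03g39610 had 543 and 3334. These 6 genes were thus between 2.65 and 7.17 times lower in MH63. Further down the range LOC_Os04g38410 had only 14 tags in MH63 and 1739 in ZS97, and LOC_Os07g37550 had 2 and 131. The 4 members that were not called included the most abundant one in both parents, LOC_Os07g38960, with 7325 tags in MH63 and 12283 in ZS97, and LOC_Os01g64960, with 2523 and 2705.

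In the hybrids the antenna genes lay above the MH63 level in sum. They had 68845 tags in SY63, 64021 in FU and 54769 in FR, beside 25128 in MH63 and 73347 in ZS97, so that FR was the farthest of the 3 from ZS97. Of all 17 members 15 were above MH63 in each hybrid library, among them the 13 called ones, which had been chosen for a low MH63 count. In whole seedlings fewer cells of a type and less RNA per cell cannot be told apart.

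**Figure D2:**
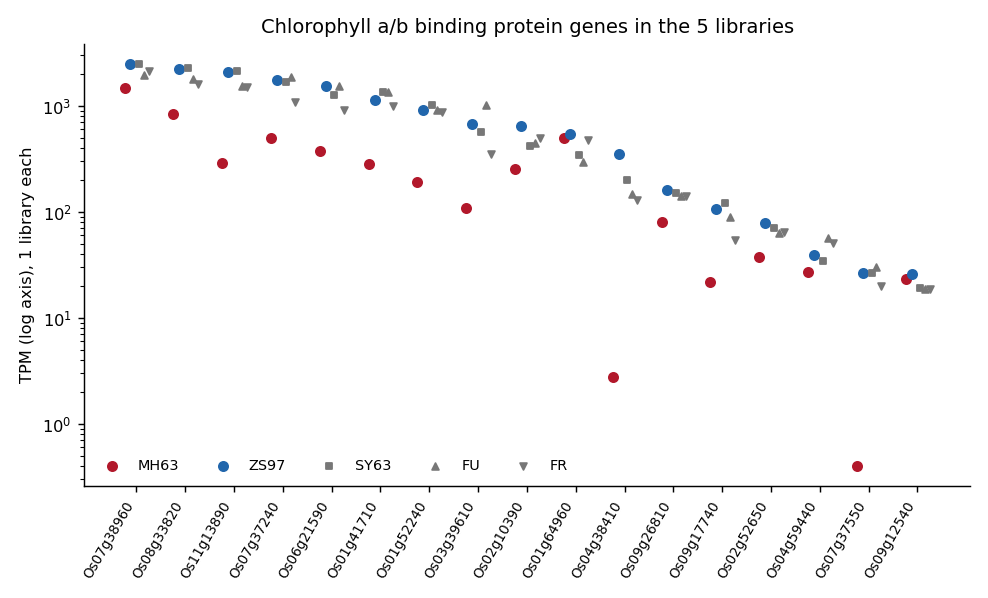
TPM (log axis) of the 17 chlorophyll a/b binding protein genes in MH63 (red), ZS97 (blue) and the hybrids SY63, FU and FR (grey), 1 library each, ordered by their level in ZS97. The red point is the lower of the parents for every gene, and the summed tags were 25128 in MH63 and 73347 in ZS97.

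The rest of the photosynthetic apparatus did not follow the antenna as a whole. Of 18 genes matched by the word photosystem 2 were higher in MH63 and 5 were higher in ZS97, at a median log2 ratio of -0.27. The word also took in genes that are no subunits by description. Among the calls towards ZS97 this was a photosystem-II repair protein (LOC_Os04g42800, 14 and 63 tags). Photosystem I subunit II (LOC_Os08g44680) had 4444 tags in MH63 and 13699 in ZS97, and subunit N (LOC_Os12g08770) had 2196 and 4786. In the opposite direction a photosystem II 10 kDa polypeptide gene (LOC_Os07g05360) had 9661 tags in MH63 and 1720 in ZS97, and photosystem I subunit XI (LOC_Os12g23200) had 1622 and 604. The sums over the list were closer, 81815 tags in MH63 and 92085 in ZS97. Plastocyanin (LOC_Os06g01210), which carries electrons to photosystem I, had 8154 tags in MH63 and 16736 in ZS97 and was called.

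The small subunit of rubisco, the enzyme that fixes carbon dioxide, gave the largest ratio among genes that had 20 or more tags in each parent, yet its total hardly differed. LOC_Os12g17600 had 53220 tags in MH63 and 163 in ZS97 (log2 ratio 8.33, interval 8.11 to 8.56), and 38549 in SY63, 46858 in FU and 67596 in FR. Of the other copies, LOC_Os12g19381 had 109475 tags in MH63 and 172518 in ZS97, and LOC_Os12g19470 had 52267 and 31363; neither was called. The 5 genes of the list, which has 1 large-chain gene (LOC_Os10g21268, 0 and 10 tags), summed to 215017 tags in MH63 and 204206 in ZS97. Such near-identical copies are told apart by single bases within the tag, so how the tags were divided between copies is uncertain. The copy on chromosome 2, LOC_Os02g05830, had 55 tags in MH63 and 152 in ZS97 and was called.

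The steps from precursor to chlorophyll, a list made after the antenna genes had been seen, held 11 enzymes of tetrapyrrole synthesis. None was called higher in MH63 and 4 were called higher in ZS97, and their tags summed to 4465 in MH63 and 7802 in ZS97. The 4 were the chlI subunit of magnesium chelatase, which puts the metal into the pigment (LOC_Os03g36540, 594 tags in MH63 and 1963 in ZS97), a second magnesium chelatase gene (LOC_Os03g20700, 446 and 1108), uroporphyrinogen decarboxylase (LOC_Os03g21900, 341 and 1162) and coproporphyrinogen III oxidase (LOC_Os04g52130, 336 and 867). The chlD subunit gene LOC_Os03g59640 was not called, with 963 tags in MH63 and 681 in ZS97. Among 29 other Calvin cycle enzymes 3 were higher in MH63 and 4 higher in ZS97. Chloroplast triosephosphate isomerase (LOC_Os09g36450) had 1940 tags in MH63 and 7604 in ZS97, and transketolase (LOC_Os06g04270) had 1820 and 4353. A second transketolase gene, LOC_Os07g09190, had 274 tags in MH63 and 6 in ZS97. Of all 256 genes described with a chloroplast precursor, another list made after the data were seen, 25 were higher in MH63 and 41 higher in ZS97.

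The genes that differed most, with at least 20 tags in both parents, came from unrelated functions. Higher in MH63 were histone H3.3a (LOC_Os04g37780, 1861 tags in MH63 and 32 in ZS97), a metallothionein (LOC_Os11g47809, 1444 and 37) and inositol oxygenase, which opens the ring of myo-inositol (LOC_Os06g36560, 904 and 33). A protein related to early response to dehydration (LOC_Os01g35050) had 571 tags in MH63 and 34 in ZS97, a calcineurin B protein (LOC_Os01g39770) had 393 and 24, and an amino acid transporter (LOC_Os07g04180) had 367 and 28. The MH63 level of each was between 12.9 and 57.4 times that of ZS97. The hybrids were between the parents for all of these 6 genes: histone H3.3a had 438 tags in SY63, 496 in FU and 520 in FR.

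Higher in ZS97 were a thioredoxin, a small protein that reduces disulphides (LOC_Os08g29110, 22 tags in MH63 and 1346 in ZS97), and adenylosuccinate synthetase of purine synthesis (LOC_Os03g49220, 29 and 970). UP-9A (LOC_Os02g03710) had 38 tags in MH63 and 556 in ZS97, a dehydration-responsive element-binding protein (LOC_Os09g35010) had 26 and 339, and a ribonuclease of the T2 family (LOC_Os09g36700) had 23 and 246. The most abundant gene of this group, a membrane protein (LOC_Os04g33830), had 931 tags in MH63 and 8886 in ZS97. The hybrids did not all lie between the parents here. For the ribonuclease FU had 331 and FR 414 tags, above both parents, while SY63 had 104. For the dehydration-responsive element-binding protein the hybrids had 47 to 87 tags, near MH63.

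Among the most abundant mRNAs 2 beside the rubisco gene were called. An RNA recognition motif protein (LOC_Os12g43600) had 46677 tags in MH63 and 19872 in ZS97, and 15404 to 16949 in the hybrids. A ubiquitin family gene (LOC_Os02g06640) had 25963 tags in MH63 and 10814 in ZS97. Carbonic anhydrase (LOC_Os01g45274), which supplies carbon dioxide to rubisco, had 26395 and 39765 tags and was not called. An oxygen evolving enhancer protein 3 gene (LOC_Os07g36080) had 12242 tags in MH63 and 23639 in ZS97, just inside the 2-fold limit (log2 ratio -0.97), and was called with TMM totals.

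The list of defence proteins leaned towards MH63. It held 115 genes matched by words for pathogenesis-related proteins (chitinases, thaumatins, protease inhibitors and related families), with strays described below. Of these 31 were called higher in MH63, or 27.0%, and 6 higher in ZS97. Over members with at least 20 tags the shares were 33.3% and 6.9%, against 13.5% and 8.6% of all genes, and the median log2 ratio was 0.57. An SCP-like extracellular protein (LOC_Os07g03730) had 1550 tags in MH63 and 0 in ZS97, at least 510-fold higher, with 42 tags in SY63, 478 in FU and 32 in FR. A thaumatin-like protein (LOC_Os03g14050) had 726 tags in MH63 and 222 in ZS97, and the trypsin inhibitor BBTI13 (LOC_Os03g60840) had 570 and 180. Other inhibitors of the same family ran the opposite way, BBTI2 (LOC_Os01g03320) with 356 tags in MH63 and 904 in ZS97, and BBTI5 (LOC_Os01g03360) with 144 and 366. Both of these had more tags in FU (2251 and 1610) than in either parent. The word thionin also matched inside methionine, so the list took in genes described with methionine. Their number was not counted, and the shares above include them. Among them was a methionine sulfoxide reductase (LOC_Os05g33510), which repairs oxidised proteins and had 0 tags in MH63 and 939 in ZS97.

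Class III peroxidases, secreted enzymes that act on the cell wall and hydrogen peroxide, were called almost wholly in the direction of MH63. Of 79 members 20 (25.3%) were higher in MH63 and 1 was higher in ZS97, and the median log2 ratio was 0.75. With TMM totals the counts were 14 and 2. LOC_Os04g59150 had 1403 tags in MH63 and 343 in ZS97, LOC_Os08g41090 had 581 and 251, and both were also called with TMM totals. The exception was LOC_Os07g48040, with 16 tags in MH63 and 189 in ZS97. It lies between peroxidase genes of the opposite direction, LOC_Os07g48020 with 231 and 84 tags and LOC_Os07g48060 with 130 and 36.

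Receptors at the cell surface and immune receptors inside the cell were called in both directions. Of 281 receptor-like kinases, which sense signals at the cell surface, 40 (14.2%) were higher in MH63 and 18 (6.41%) higher in ZS97. The shares of all genes were 10.7% and 6.86%. BRASSINOSTEROID INSENSITIVE 1-associated receptor kinase 1 (LOC_Os11g31540) had 647 tags in MH63 and 59 in ZS97, and a cysteine-rich receptor-like kinase (LOC_Os04g56430) had 361 and 14. Of 55 wall-associated kinases 7 (12.7%) were higher in MH63 and 5 (9.09%) higher in ZS97. OsWAK112d (LOC_Os10g10130) had 0 tags in MH63 and 111 in ZS97, OsWAK60 (LOC_Os04g30240) had 0 and 81, and OsWAK28 (LOC_Os03g62430) had 112 and 30. Of 222 NB-ARC and NBS-LRR genes, the intracellular receptors for pathogen effectors, 19 (8.56%) were higher in MH63 and 18 (8.11%) higher in ZS97. The order turned to 16 and 20 with TMM totals. The extremes were LOC_Os11g39190 with 0 tags in MH63 and 322 in ZS97, and LOC_Os08g42700 with 306 and 51. The words of this list also took in genes that are no immune receptors by description, a 5-azacytidine resistance protein (LOC_Os01g07090, 133 and 331) and a pleiotropic drug resistance transporter (LOC_Os07g33780, 224 and 55).

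Jacalin-like lectins, carbohydrate-binding proteins, had 6 members with tags, of which 2 were higher in MH63 and 0 in ZS97. LOC_Os01g24710 had 735 tags in MH63 and 16 in ZS97, and LOC_Os10g04270 had 28 and 0. Lipoxygenases start the synthesis of jasmonate and other oxylipins. Of 9 genes LOC_Os03g49380, LOC_Os08g39840 and LOC_Os08g39850 were higher in MH63 (138 and 42, 85 and 7, and 95 and 6 tags), and LOC_Os12g37260 and LOC_Os02g10120 were higher in ZS97 (33 and 256, and 10 and 83 tags). FU had 2289 tags of LOC_Os12g37260, far above either parent.

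Specialised metabolism held several genes that were counted in 1 parent only. Of 20 terpene synthase genes 6 were higher in MH63 and 4 higher in ZS97, together 10 of 20. Ent-kaurene synthases make precursors of the gibberellin and phytoalexin pathways: LOC_Os02g36210 had 290 tags in MH63 and 0 in ZS97, and LOC_Os04g09900 had 277 and 5. A terpene synthase on chromosome 11 (LOC_Os11g28530) had 142 tags in MH63 and 0 in ZS97, while LOC_Os04g52210 had 0 and 209. The hybrids did not resemble the higher parent in the same way. LOC_Os02g36210 had 18 tags in SY63, 8 in FU and 6 in FR, whereas LOC_Os04g52210 had 173, 113 and 129.

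Of 190 cytochrome P450 enzymes, which oxidise hormones, fatty acids and defence compounds, 27 (14.2%) were higher in MH63 and 10 (5.26%) higher in ZS97. LOC_Os03g04660 (cytochrome P450 86A1) had 292 tags in MH63 and 98 in ZS97, LOC_Os10g36848 had 370 and 113, and LOC_Os08g05620 had 0 and 277. Of 117 phenylpropanoid enzymes 15 (12.8%) were higher in MH63 and 13 (11.1%) higher in ZS97, a balance that turned to 13 and 16 with TMM totals. Phenylalanine ammonia-lyase is the entry enzyme of this pathway. Its genes LOC_Os02g41630 (6279 tags in MH63 and 1830 in ZS97) and LOC_Os02g41650 (1615 and 510) were higher in MH63, while LOC_Os04g43800 (30 and 134) was higher in ZS97 and 4 others were not called. An isoflavone reductase (LOC_Os01g01660) was higher in MH63, with 656 and 244 tags. The called members with most tags in the other direction were enzymes of later steps: leucoanthocyanidin dioxygenase (LOC_Os03g32470) had 47 and 163 tags, anthocyanidin 3-O-glucosyltransferase (LOC_Os06g18670) had 71 and 291, and a dirigent protein, which steers the coupling of lignans (LOC_Os12g09720), had 0 and 608. Of 183 UDP-glycosyltransferases 16 (8.74%) were higher in MH63 and 15 (8.2%) higher in ZS97, or 10 and 16 with TMM totals. Of 56 glutathione S-transferases, which detoxify by conjugation, 5 and 2 were called, or 3 and 5 with TMM totals.

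**Figure D3:**
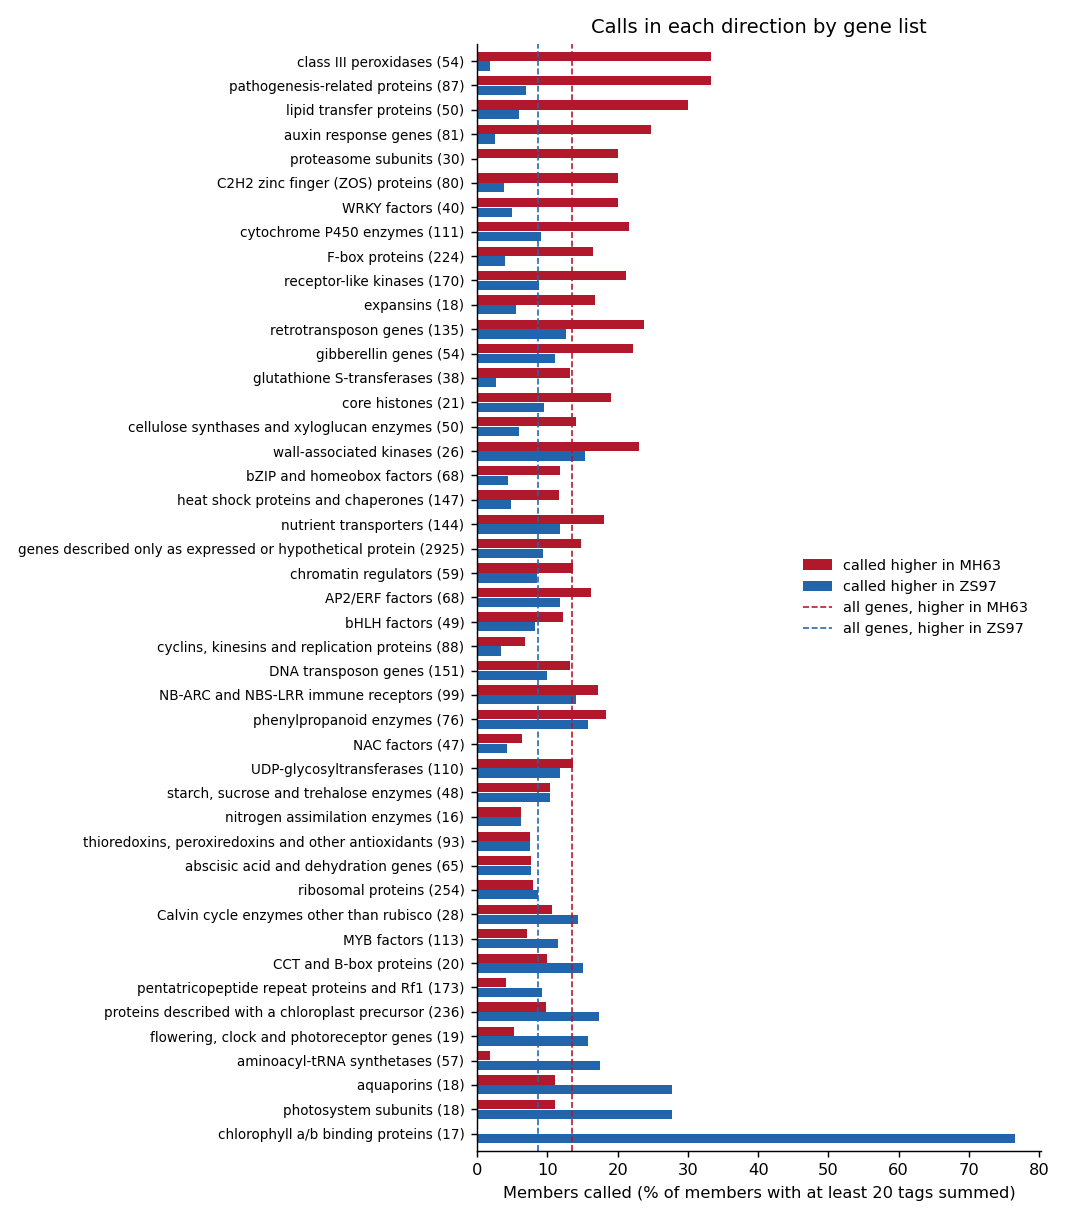
Share of the members of each gene list called higher in MH63 (red) and higher in ZS97 (blue), in percent of the members with at least 20 tags summed over the parents (number in brackets), for lists of 15 or more such members, ordered by the difference. Dashed lines are the shares of all genes, 13.5% and 8.6%; class III peroxidases stand at one end with 33.3% and 1.85%, and chlorophyll a/b binding proteins at the other with 0 and 76.5%.

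Of the hormone lists, that of auxin had most of its calls towards MH63. Of 116 auxin response genes 20 (17.2%) were higher in MH63 and 2 higher in ZS97, 15 and 3 with TMM totals, and the median log2 ratio was 0.57. An auxin-repressed protein (LOC_Os09g26620) had 4096 tags in MH63 and 956 in ZS97, and its level in the hybrids was 734 to 769 tags. The Aux/IAA repressors OsIAA3 (LOC_Os01g13030, 1395 and 640) and OsIAA15 (LOC_Os05g08570, 717 and 313) were called as well, but not with TMM totals. Higher in ZS97 were auxin response factor 19 (LOC_Os06g48950, 5 and 28) and an auxin efflux carrier (LOC_Os08g09190, 54 and 157). Of 72 gibberellin genes 12 were higher in MH63 and 6 higher in ZS97, or 8 and 10 with TMM totals. Of 83 abscisic acid and dehydration genes 6 and 5 were called, or 6 and 7 with TMM totals. Abscisic stress-ripening genes were called in both directions: LOC_Os02g33820 had 1395 tags in MH63 and 183 in ZS97, and LOC_Os04g34600 had 64 and 512.

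Transcription factor families held some large single differences. WRKY factors, regulators of defence, had 9 of 60 genes (15.0%) higher in MH63 and 2 (3.33%) higher in ZS97. OsWRKY53 (LOC_Os05g27730) had 1628 tags in MH63 and 554 in ZS97. C2H2 zinc finger (ZOS) proteins had 16 of 111 genes (14.4%) higher in MH63 and 3 (2.7%) higher in ZS97. Their most abundant called member was OsHDT1 itself, described below, followed by ZOS6-10 (LOC_Os06g49490, 1658 and 762), which was not called with TMM totals, and ZOS1-18 (LOC_Os01g65080, 1573 and 456). MYB factors were called in both directions, 9 of 155 (5.81%) higher in MH63 and 13 (8.39%) higher in ZS97. Among the latter were LOC_Os01g34060 (185 and 621) and LOC_Os09g01960 (54 and 354). For the AP2/ERF factors the counts were 12 and 8 of 99 (12.1% and 8.08%), and for bHLH factors 6 and 6 of 70 (8.57% each). For NAC factors they were 3 and 2 of 73 (4.11% and 2.74%), and for bZIP and homeobox factors 8 and 3 of 87 (9.2% and 3.45%). With TMM totals AP2/ERF (10 and 11), bHLH (5 and 7) and NAC (2 and 3) had more members higher in ZS97. A bHLH gene, LOC_Os01g72370, had 81 tags in MH63 and 0 in ZS97, and 123 in SY63, above either parent.

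Genes of translation were called in both directions. Of 272 ribosomal protein genes 20 (7.35%) were higher in MH63 and 22 (8.09%) higher in ZS97, and the median log2 ratio was 0.03. With TMM totals the counts were 12 and 30. Ribosomal protein L13 (LOC_Os03g37970) had 3056 tags in MH63 and 746 in ZS97, while L4 (LOC_Os03g15870) had 1205 and 2922 and L5 (LOC_Os03g03360) had 985 and 2070. Aminoacyl-tRNA synthetases, which load amino acids on tRNA, had 1 of 61 genes higher in MH63 and 10 (16.4%) higher in ZS97. The most abundant of them was LOC_Os07g30200, with 252 tags in MH63 and 933 in ZS97. LOC_Os01g54020 had 124 and 324, and cysteinyl-tRNA synthetase (LOC_Os09g38420) had 106 and 262. For 32 proteasome subunits the direction rested on the scaling, with 6 higher in MH63 and 0 in ZS97 by clean-tag totals but 1 and 3 with TMM totals. For 172 heat shock proteins and chaperones the counts were 17 and 7, but 13 and 16 with TMM totals. F-box proteins, which choose targets for degradation, had 37 of 344 genes (10.8%) higher in MH63 and 10 (2.91%) higher in ZS97. Among them were OsFBX49 (LOC_Os02g27400, 1996 and 698) and OsFBK16 (LOC_Os06g39370, 483 and 1033). Pentatricopeptide repeat proteins, which process organelle RNA and include the family of fertility restorers, had 7 of 284 higher in MH63 and 16 higher in ZS97. Over members with at least 20 tags the shares were 4.05% and 9.25%, against 13.5% and 8.6% of all genes. An assumed variation of 0.2 left 2 and 3 of these repeat protein genes called.

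Chromatin genes included some of those with large differences. Of 26 genes described as core or linker histones 4 were higher in MH63 and 2 higher in ZS97 (2 and 3 with TMM totals). The called member with most tags was LOC_Os09g38020 with 2043 and 931, which was not called with TMM totals. A linker histone gene (LOC_Os08g33190, 0 and 25) was among the calls towards ZS97. The words of this list left out genes described as histone H3, such as histone H3.3a above and LOC_Os06g06460 (42 and 0). Of 65 chromatin regulators 9 and 5 were called (5 and 7 with TMM totals). The words for these regulators left out OsHDT1, because of its description, and a histone-lysine N-methyltransferase gene (LOC_Os01g59620, 0 and 21). The SNF2 family gene LOC_Os02g02290 had 610 tags in MH63 and 173 in ZS97, a histone deacetylase gene (LOC_Os12g08220) had 191 and 533, and the SET domain gene LOC_Os02g49326 had 174 and 454. Of 139 cyclins, kinesins and replication proteins 6 were higher in MH63 and 3 higher in ZS97, or 3 and 7 with TMM totals. A cyclin-dependent kinase inhibitor (LOC_Os02g52480) had 12 tags in MH63 and 71 in ZS97, and was still higher in the hybrids, with 103 to 212 tags.

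At the cell surface lipid transfer proteins were higher in MH63 more often than other genes. Of 70 members 16 (22.9%) were higher in MH63 and 3 higher in ZS97, or 10 and 3 with TMM totals. LTPL12 (LOC_Os12g02320) had 791 tags in MH63 and 50 in ZS97, and its neighbour LTPL11 (LOC_Os12g02310) had 9022 and 4223 but was not called with TMM totals. Against this, LTPL124 (LOC_Os04g52260) had 116 and 535 tags. Aquaporins, the water channels, leaned the other way, with 2 of 22 genes (9.09%) higher in MH63 and 5 (22.7%) higher in ZS97. LOC_Os04g47220 had 1281 tags in MH63 and 3267 in ZS97, LOC_Os09g36930 had 760 and 2550, and LOC_Os07g26690 had 2511 and 815. An assumed variation of 0.2 left 0 and 3 aquaporins called. Of 189 genes matched by words for nutrient transporters 26 (13.8%) and 18 (9.52%) were called. The words also took in genes that are no transporters by description, such as a nitrate-induced NOI protein (LOC_Os04g31030, 118 and 42). An amino acid permease (LOC_Os12g42850) had 1547 tags in MH63 and 546 in ZS97, and a sulfate transporter (LOC_Os03g06520) had 64 and 263. Of 27 expansins, which loosen walls, 3 and 1 were called, and of 73 cellulose synthase and xyloglucan genes 7 and 3. CSLH1 (LOC_Os10g20090) had 544 tags in MH63 and 171 in ZS97.

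Carbohydrate and nitrogen enzymes were called in equal numbers in both directions. Of 58 starch, sucrose and trehalose enzymes 5 were higher in each parent, or 3 and 6 with TMM totals. Sucrose synthase, which splits sucrose in sink tissue, was higher in MH63 for LOC_Os06g09450 (1486 and 463) and LOC_Os03g22120 (778 and 170), and so was a beta-amylase (LOC_Os03g22790, 643 and 180). Starch synthases were higher in ZS97, LOC_Os01g52250 with 54 tags in MH63 and 374 in ZS97 and LOC_Os02g51070 with 36 and 119. Of 17 nitrogen assimilation enzymes asparagine synthetase (LOC_Os03g18130) was higher in MH63 (303 and 68) and ferredoxin-nitrite reductase (LOC_Os05g42350) was higher in ZS97 (2 and 41); with TMM totals 1 and 3 of the list were called. Thioredoxins, peroxiredoxins and other antioxidants gave 7 of 103 in each direction, or 5 and 8 with TMM totals. Metallothioneins, small metal-binding proteins, were listed after the values were seen. LOC_Os05g11320 had 0 tags in MH63 and 7753 in ZS97 and LOC_Os11g47809 had 1444 and 37, while LOC_Os01g05650 had 2057 and 2055 and LOC_Os01g74300 had 2249 and 2232. The first had 2002 tags in SY63, 902 in FU and 1796 in FR.

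Flowering-time and clock genes were of interest because the study dealt with OsHDT1, a plant-specific histone deacetylase, and the heading date of the hybrid. According to the study, the seedlings were all harvested at the same time of the subjective day. The study describes the expression of this deacetylase gene and of GIGANTEA as rhythmic. The counts below hold for that time of day only, and other times were not tested. OsHDT1 (LOC_Os05g51830, which the deposited table describes as ZOS5-12) had 2633 tags in MH63 and 304 in ZS97 (log2 ratio 3.10, interval 2.92 to 3.27). It had 428 tags in SY63, 142 in FR and 7590 in FU, so that MH63 had more tags than any library but the over-expression hybrid. The study, by contrast, reported no clear difference in OsHDT1 transcript between MH63 and SY63 by quantitative PCR. It also reported none in leaf OsHDT1 protein between MH63, ZS97 and SY63. Those were other measures than tag counts, and the material differed too. The protein came from leaves of older plants under natural long days. The quantitative PCR followed the gene over the day under long and short days. The reason for the discrepancy was not tested. Of 23 genes with tags in this list OsHDT1 was the 1 called higher in MH63, and 3 were higher in ZS97. These were a CCT/B-box zinc finger gene (LOC_Os06g16370, 5 and 50 tags), a response regulator receiver domain gene (LOC_Os07g49460, 113 and 412) and phytochrome A, a receptor of far-red light (LOC_Os03g51030, 70 and 145). GIGANTEA (LOC_Os01g08700), a clock output gene, had 2709 tags in MH63 and 3076 in ZS97 and was not called. Phytochrome B (LOC_Os03g19590) had 184 and 196 tags, phytochrome C (LOC_Os03g54084) 111 and 73, and ELF3 (LOC_Os06g05060), a clock component, 184 and 275. The MYB gene LOC_Os01g74020 had 1882 and 1111 tags, OsMADS65 (LOC_Os01g69850) 665 and 427, and casein kinase II alpha (LOC_Os03g55389) 217 and 138. The other response regulators of the list had 865 and 848 (LOC_Os03g17570), 368 and 219 (LOC_Os11g05930), 308 and 434 (LOC_Os09g36220), and 174 and 255 tags (LOC_Os02g40510). None of these was called. The photolyase-domain genes had 394 and 271 (LOC_Os04g37920), 179 and 124 (LOC_Os02g41550), and 45 and 56 tags (LOC_Os02g36380), and the casein kinase 1 gene LOC_Os03g57940 had 176 and 94. The remaining 4 genes had at most 14 tags in either parent. Among 22 CCT and B-box genes in all, a list made after the data were seen, 2 were higher in MH63 and 3 higher in ZS97; LOC_Os02g08150 had 13 and 112 tags.

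Transposon-related genes were called in both directions. Of 354 retrotransposon genes 38 (10.7%) were higher in MH63 and 23 (6.5%) higher in ZS97, or 28 and 27 with TMM totals. Over the 135 of them with at least 20 tags the shares were 23.7% and 12.6%, against 13.5% and 8.6% of all genes. LOC_Os08g03520, of the Ty1-copia class, had 1099 tags in MH63 and 316 in ZS97, and the unclassified LOC_Os03g31026 had 307 and 1094. Of 241 DNA transposon genes 22 (9.13%) and 18 (7.47%) were called, or 18 and 20 with TMM totals. A CACTA gene (LOC_Os04g03884) had 483 tags in MH63 and 0 in ZS97. Tags of repeated elements that matched several genes had been removed before counting, and these genes stand for the unique copies. Genes described only as expressed or hypothetical protein were 4363, of which 463 (10.6%) were higher in MH63 and 292 (6.69%) higher in ZS97, or 345 and 370 with TMM totals. The most abundant called ones were LOC_Os12g33120 (13720 and 5132), LOC_Os03g12670 (11979 and 5624, not called with TMM totals) and LOC_Os01g15270 (8442 and 1330).

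Markers of other tissues were examined because whole seedlings were used. The 40 green-tissue genes were the antenna, photosystem and rubisco genes above, so this list gives no further marker of green tissue. Of these 3 were higher in MH63 and 19 were higher in ZS97, and the sums were 321960 and 369638 tags. The 8 root genes summed to 1129 tags in MH63 and 1241 in ZS97, with 1 called higher in MH63 (0 with TMM totals). The 32 pollen and anther genes summed to 10577 and 5527 tags, with 4 higher in MH63, and most of their tags came from Pollen Ole e I allergen family proteins such as POEI12 (LOC_Os10g05970, 4947 and 2292, not called with TMM totals) and POEI14 (LOC_Os10g05990, 1783 and 510). The 75 seed storage genes summed to 36489 and 20750 tags, most of them on the lipid transfer proteins of that description, with 17 genes higher in MH63 and 5 higher in ZS97; a glutelin (LOC_Os10g26060) had 38 and 79 tags. The 125 cell division genes summed to 11735 and 9743 tags, with 10 higher in MH63 and 4 higher in ZS97, or 5 and 8 with TMM totals. What part the makeup of the seedlings had in the differences was not tested.

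Some genes were counted in 1 parent only. At least 20 tags in MH63 and 0 in ZS97 were found for 175 genes (0.851%), and the reverse for 152 genes (0.739%). The median count was 42 tags for the MH63 genes and 46 for the ZS97 genes, and 35 and 45 of them had 100 tags or more. Most abundant on the MH63 side, after LOC_Os07g03730, were 3 genes of unknown function, LOC_Os02g27594 (715 tags), LOC_Os08g42210 (545) and LOC_Os05g11064 (520), then 40S ribosomal protein S27 (LOC_Os02g27769, 488), the CACTA gene LOC_Os04g03884 (483), an unknown gene (LOC_Os06g03486, 421) and hypersensitive-induced reaction protein 4 (LOC_Os06g04399, 393). On the ZS97 side metallothionein-like protein 3B (LOC_Os05g11320, 7753 tags) was followed by an acyl-CoA dehydrogenase domain protein (LOC_Os06g23870, 2005) and the unknown genes LOC_Os01g25920 (1531) and LOC_Os02g12480 (1131). These ratios were at least 129-fold in MH63 for the MH63 genes named, and at least 381-fold in ZS97 for those of ZS97. Of the 175 genes 62 were described only as expressed or hypothetical protein, and of the 152 genes 68.

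The hybrids carried both groups of genes, but not to the same degree. Of the 175 genes of MH63, 140 had tags in all 3 hybrid libraries and 3 had none in any, and of the 152 genes of ZS97, 150 had tags in all 3 and 0 had none. In SY63 the median level was 18.2% of the MH63 level for the MH63 genes and 59.5% of the ZS97 level for the ZS97 genes. In FU the medians were 34.7% and 44.1%, and in FR 28.6% and 44.8%. The parental level by which each gene was chosen is also the divisor of these shares. The SCP-like protein had 42 tags in SY63 and 1550 in MH63, while acyl-CoA dehydrogenase had 1051 in SY63 and 2005 in ZS97.

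**Figure D4:**
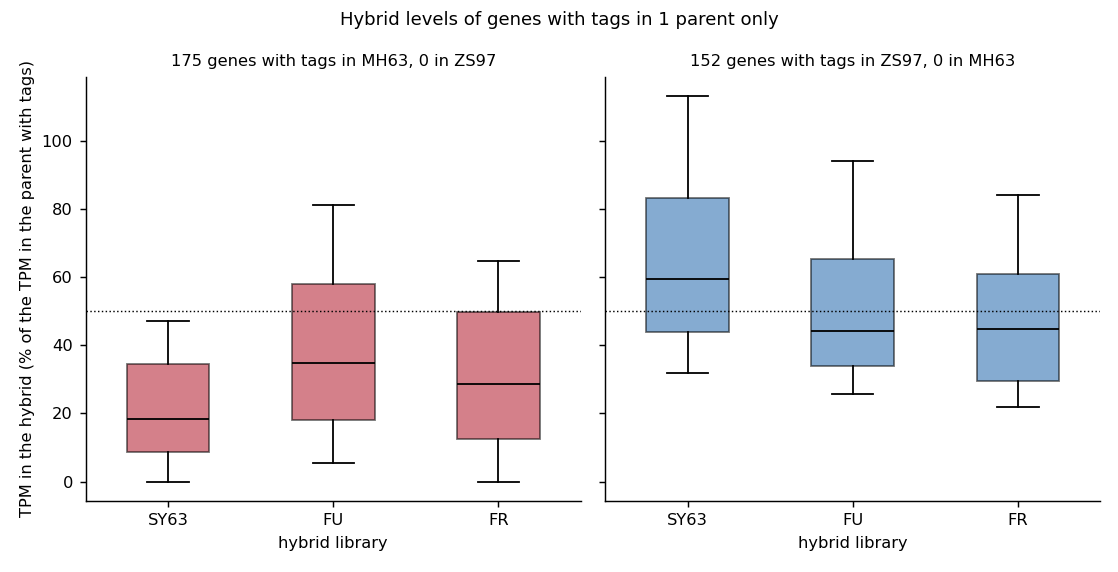
Level in the hybrids SY63, FU and FR of the 175 genes with at least 20 tags in MH63 and 0 in ZS97 (left, red) and of the 152 with 0 tags in MH63 and at least 20 in ZS97 (right, blue), in percent of the TPM in the parent with tags. Boxes span the quartiles over genes, lines inside them the median, whiskers the 10th to 90th percentile, and the dotted line 50%; the median in SY63 was 18.2% on the left and 59.5% on the right.

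Called genes were spread over all 12 chromosomes. Their share of the tagged genes, given by the chromosome digits of the locus name, ran between 15.5% on chromosome 5 (263 of 1696 genes) and 20.4% on chromosome 11 (221 of 1083), beside 17.5% of all genes. Chromosome 4 followed with 19.3% and chromosome 9 with 18.8%. Higher in MH63 were 57.4% of the called genes on chromosomes 1 and 3 and 68.3% on chromosome 10. With TMM totals more genes were higher in MH63 on chromosomes 5, 10, 11 and 12 and more were higher in ZS97 on the other chromosomes. Genes counted in 1 parent only were less even: they made up 4.25% of the genes of chromosome 11, with 32 counted in MH63 only and 14 in ZS97 only, 2.73% of chromosome 8 and 0.59% of chromosome 5, where there were 3 and 7. The median log2 ratio of genes with at least 20 tags was 0.36 on chromosome 11 and 0.15 to 0.26 on the others. Chromosome 11 also held 50 of the 222 immune receptor genes with tags, of which 6 were higher in MH63 and 8 higher in ZS97, and among these 4 were counted in MH63 only and 3 in ZS97 only. Besides them, its genes counted in MH63 only included a terpene synthase (LOC_Os11g28530), a MATE efflux protein (LOC_Os11g03240, 80 tags) and OsWRKY63 (LOC_Os11g45920, 29 tags).

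At a finer scale the chromosomes were divided into windows of about 200 gene models by locus number. Among 275 windows with 30 or more tagged genes the called share was 16.9% at the median (quartiles 13.8% and 22.0%), and it ran between 7.04% and 51.5%. The highest share was on chromosome 8 between LOC_Os08g26220 and LOC_Os08g27860, where 17 of 33 genes were called, 6 of them towards MH63 and 11 towards ZS97. Unknown genes led it, LOC_Os08g26230 with 5221 tags in MH63 and 699 in ZS97, beside an endothelial differentiation-related factor 1 gene (LOC_Os08g27850, 2513 and 1083). The second was on chromosome 1 between LOC_Os01g24020 and LOC_Os01g25990, with 18 of 45 genes called, 9 in each direction. It held the jacalin-like lectin LOC_Os01g24710, a 3-hydroxyacyl-CoA dehydrogenase (LOC_Os01g24680, 4 tags in MH63 and 675 in ZS97) and LOC_Os01g25920 (0 and 1531). In the third, on chromosome 4 between LOC_Os04g24110 and LOC_Os04g25990, 10 of 30 genes were higher in MH63 and 1 higher in ZS97, among them ribose-5-phosphate isomerase A (LOC_Os04g24140, 1336 and 368) and OsWAK32 (LOC_Os04g24220, 255 and 110). A second window of chromosome 8, from LOC_Os08g10010 to LOC_Os08g11720, had 13 of 37 genes called and held SHR5-receptor-like kinases of both directions, LOC_Os08g10310 with 274 and 74 tags and LOC_Os08g10320 with 16 and 273. A window near the start of chromosome 4 had 15 of 43 called, led by LOC_Os04g02120 with 737 and 6 tags, a dehydrogenase E1 gene (LOC_Os04g02900, 749 and 306) and an amidase (LOC_Os04g02780, 512 and 201). A share over 30% was found in 11 windows. The windows were ranked on the same counts, so the order is a description.

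**Figure D5:**
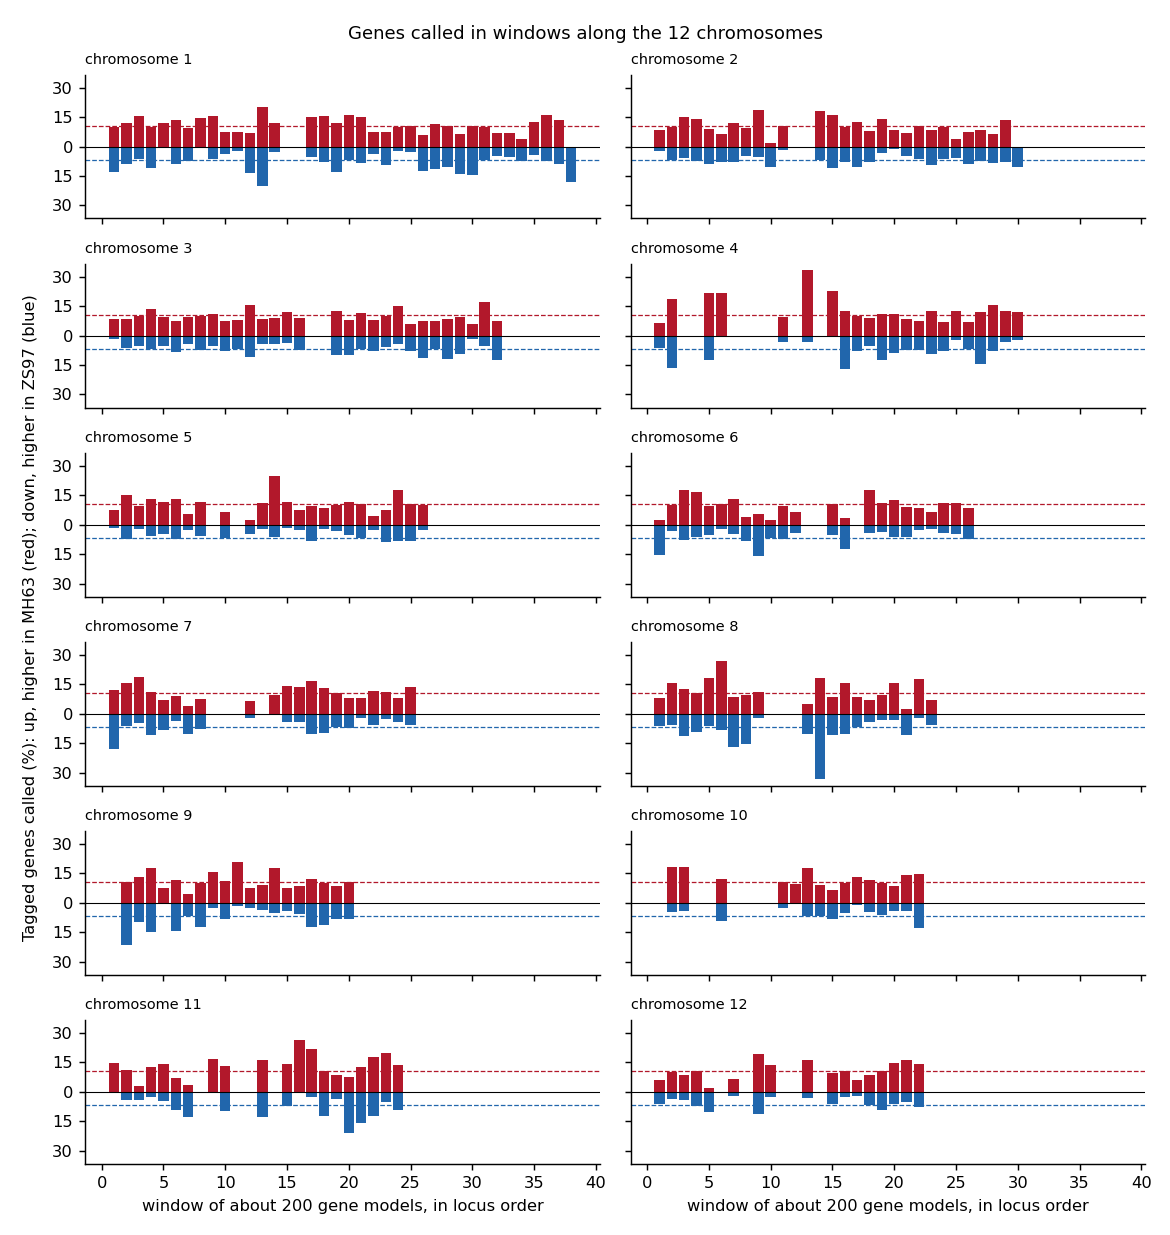
Percent of the tagged genes called higher in MH63 (red, upward) and higher in ZS97 (blue, downward) in 275 windows of about 200 gene models along the 12 chromosomes, in locus order; windows with fewer than 30 tagged genes are left out. Dashed lines are the shares over all genes, 10.7% and 6.86%, and the tallest pair of bars is on chromosome 8, where 6 and 11 of 33 genes were called.

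Neighbouring genes were sometimes called together. Runs of 4 or more neighbours called in the same direction, chosen after the values were seen, were 9 runs of 4 and 2 runs of 5 for MH63 and 2 runs of 4 for ZS97. How many such runs randomly placed calls would give was not computed. The run of 5 genes between LOC_Os04g10010 and LOC_Os04g10240 held genes of different description: tasselseed-2 (LOC_Os04g10010, 86 tags in MH63 and 0 in ZS97), an ent-kaurene synthase (LOC_Os04g10060, 17 and 0), a cytochrome P450 (LOC_Os04g10160, 119 and 2), an unknown gene (LOC_Os04g10214, 211 and 5) and a lesion-inducing protein (LOC_Os04g10240, 409 and 16). The ent-kaurene synthase LOC_Os04g09900 lies just before it. In the hybrids the first 3 of these genes had 0 to 6 tags in each library. A thaumatin run on chromosome 12, LOC_Os12g43430 to LOC_Os12g43490, had 34, 42, 253 and 30 tags in MH63 and 0, 0, 45 and 0 in ZS97. The thaumatin before it (LOC_Os12g43380) ran the other way, with 4 and 90. One of the ZS97 runs, LOC_Os02g57010 to LOC_Os02g57040, held a photosystem assembly protein, YCF37 (LOC_Os02g57020, 207 tags in MH63 and 612 in ZS97).

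In 301 cases neighbours with tags were called in opposite directions, and in 12 of these both had the same description. The share of all neighbouring pairs was not computed. With 10.7% of all genes called towards MH63 and 6.86% towards ZS97, such pairs also arise between unrelated genes. The count is therefore a description only. The methionine synthase genes (5-methyltetrahydropteroyltriglutamate-homocysteine methyltransferase) LOC_Os12g42876 and LOC_Os12g42884 had 1473 and 24 tags in MH63 and 359 and 426 in ZS97. In SY63 both were expressed, with 684 and 582 tags. Cytochrome P450 genes on chromosome 11 (LOC_Os11g41680, 191 tags in MH63 and 67 in ZS97; LOC_Os11g41710, 9 and 72) and the gibberellin receptor genes LOC_Os09g28740 (23 and 60) and LOC_Os09g28750 (62 and 19) behaved alike. How the tags were divided between such copies is uncertain.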

How the data were processed

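Tag libraries (1 per genotype) were made from NlaIII-cut seedling cDNA and read on an Illumina instrument. According to the study's methods, the authors matched clean tags to the tags of japonica cDNAs with at most 1 mismatch, dropped tags of several genes and summed the rest; the counts per gene were deposited without scaling. For TPM, the authors scaled each count to the clean-tag total of its library and wrote 0.01 for 0. The authors also deposited counts of tags matched to the genome. The steps and tools from reads to clean tags are not given in the sources used here. Columns of the authors' own log2 ratios, p-values and false discovery rates for each pair of libraries, and the shorter tables filtered on them, were not used.

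Totals of clean tags were derived from counts and TPM. MH63 and ZS97 were compared with the 2-sided test of Audic and Claverie, with Benjamini-Hochberg adjustment over 20560 genes, and genes with an adjusted value up to 0.001 that differed 2-fold or more were called; a count of 0 entered ratios as 3 tags. With 1 library per genotype the quasi-likelihood test of edgeR could not be fitted. Alternatives used TMM totals and the exact test of edgeR 4.0.16 and size factors of DESeq2 1.42.0 (R 4.3.3); other steps used Python 3.11.15 with pandas 2.3.3, numpy 2.4.6, scipy 1.17.1 and matplotlib 3.10.9. Gene names are those of the tables; no locus name could be matched to the reference names at hand. Lists were made from words of the descriptions (46 lists, 5 marker lists), and 5 more were added after the values were seen. Members and lists were chosen with earlier results of these data known. Named genes are the 10 with the largest ratio in each direction (at least 20 tags in both), the 8 with most tags against 0, the 3 called members with most tags per list and direction, all flowering and clock genes, 3 genes in each of the 5 windows with most calls and the 10 most abundant genes. Neighbours in runs, pairs of duplicates, other members of the photosynthesis, tetrapyrrole and metallothionein lists, the phenylalanine ammonia-lyase gene higher in ZS97, and the genes of chromosome 11 named for MH63 only were chosen after their values were seen.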

Additional observations from a re-analysis of the deposited data

How the results depend on the processing

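By clean-tag totals 2192 genes were called towards MH63 and 1411 towards ZS97, and 60.8% of the calls were higher in MH63. Another scaling kept both counts within 1.5 times but lowered the share, to 54.3% with totals of tags on genes, 54.5% without the 10 most abundant genes of either library, 46.2% with TMM totals and 46.1% with DESeq2 size factors. The exact test of edgeR called 524 and 424 genes (55.3% higher in MH63) at an assumed variation of 0.2, and 99 and 95 genes (51.0%) at 0.4. A 4-fold limit left 740 and 600 genes (55.2%), and at least 20 tags in both parents 1516 and 886 (63.1%). The filter on summed tags, 0.01 in place of a TPM of 0, and leaving out transposon genes or, as an alternative added after the data were seen, the antenna, photosystem and rubisco genes kept the share between 60.8% and 61.3%. Genes counted in 1 parent only numbered 76 for MH63 and 70 for ZS97 with a minimum of 50 tags, against 175 and 152 with 20; allowing up to 3 tags in the other parent gave 242 and 204. With TMM totals 41 of 418 gene ratios in the text's tables lost their call, 1 gained it and none reversed, and 24 of 102 list counts moved by over 1.5 times, against 78 with the assumed variation of 0.2 and 44 with 20 tags in both parents. With 1 library per parent no replicate could be left out, and depth limits ratios of genes with few tags.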
